A study of Saccharomyces cerevisiae with 11 samples.

Results

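Nucleosome maps were compared between strains of budding yeast in which the DNA topoisomerases Top1 and Top2 carried a degron. The control strain lacked the protein that acts on the degron, and the other strain had this protein and received auxin. The members are 4 heavily digested libraries out of 11 in the study, namely 2 from the OsTIR1 strain given auxin and 2 from the strain without OsTIR1, chosen by strain, auxin state and the nuclease level in the name of each deposited file. All cells were Saccharomyces cerevisiae of the BY4742 background with Top1-AID and Top2-AID, grown in synthetic complete medium with 2% galactose. The control strain has no OsTIR1 and received no auxin, and its culture was grown to a set density. The other strain carries pADH1-OsTIR1, so the ADH1 promoter drives OsTIR1; its culture was split at a lower density, and one part received 500 uM auxin for 60 min. No control culture without OsTIR1 was treated with auxin among these libraries, so auxin itself, the OsTIR1 construct, the handling of the cultures and loss of the topoisomerases cannot be told apart here. The 2 heavily digested untreated OsTIR1 libraries, whose culture was the other part of the split that gave the auxin cells, are given alongside and entered no test unless stated.

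The auxin-inducible degron (AID) is a plant peptide tag. OsTIR1, a rice F-box protein, binds the tag when auxin is present and leads to ubiquitination and degradation of the tagged protein. Top1 and Top2 relax the supercoils that transcription and replication leave in DNA, and supercoils of opposite sign form ahead of and behind RNA polymerase. Micrococcal nuclease cuts linker DNA and spares the DNA wrapped on histones, so the coverage of sequenced fragments shows where nucleosomes sit. Coverage is given relative to the mean of the nuclear genome without the ribosomal DNA (rDNA), a value of 1 being that mean. It is an average over cells: more cells with a nucleosome at a place and a nucleosome that stays there longer in each cell cannot be told apart.

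The libraries without OsTIR1 held 31138013 and 11174384 nuclear fragments (replicates 1 and 2) and the auxin libraries 19303329 and 15739364. All 4 averaged at least 122 fragments over each base. Auxin replicate 1 is labelled with the lower nuclease dose, 0.01171875 U, while its file name and the labels of the other 3 (0.1875 U) give the higher. Untreated replicate 2 has the same conflict between label and file name. The mean fragment length of auxin replicate 1 was 129.0 bp and its mitochondrial share of fragments 0.135%, close to auxin replicate 2 at 129.3 bp and 0.412%. The OsTIR1 library with auxin whose file name gives light digestion had 150.1 bp and 7.97%. Digestion was not equal between the groups: mean fragment length was 133.6 and 140.3 bp without OsTIR1, and 131.1 and 132.4 bp in the untreated OsTIR1 libraries. Over all ORF bodies, Pearson's r was 0.966 between the libraries without OsTIR1 and 0.916 between the auxin libraries. The degron acts on protein, so DNA coverage of the tagged genes does not check depletion. The TOP1 body had 0.909 and 0.883 without OsTIR1 and 0.844 and 0.846 with auxin, and the TOP2 body 1.00 and 0.968 against 0.952 and 0.956.

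The bodies of the ribosomal protein genes had higher coverage with auxin in nearly all cases. These 137 genes encode the proteins of the cytosolic ribosome and are among the most heavily transcribed genes of growing yeast, with promoters that are wide nucleosome-depleted regions. Their median body coverage was 0.849 and 0.816 without OsTIR1 (replicates 1 and 2). It was 1.06 and 0.987 with auxin, and 0.817 and 0.814 in the untreated OsTIR1 libraries. The untreated medians lay close to those without OsTIR1, and both auxin medians lay above all 4 others.

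Gene by gene, both auxin libraries exceeded both libraries without OsTIR1 in 130 of the 137 ribosomal protein bodies (94.9%), against 26.1% of all 5967 bodies tested. They exceeded all 4 other heavily digested libraries in 128 (93.4%), against 20.6% of all bodies. Taken singly, auxin replicate 1 lay above both libraries without OsTIR1 in 134 of these bodies and auxin replicate 2 in 131, where all bodies gave 45.5% and 35.6%. Untreated replicates 1 and 2 did so in 24 and 19, against 25.3% and 34.8% of all bodies. The median log2 change from no OsTIR1 to auxin was 0.26 on the log2(relative coverage + 0.1) scale, with a range of -0.17 to 0.51, while the median of all bodies was 0.0024. In limma, 123 had an unadjusted p under 0.05 and a positive change (89.8%), against 11.1% of all bodies.

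After Benjamini-Hochberg adjustment over all bodies, limma called 4 ribosomal protein bodies, all higher, where 0.385% of all bodies were called higher. RPS1A, which encodes a small-subunit protein and lies on chromosome XII at 1018141 to 1018908, had 0.837 and 0.748 without OsTIR1 and 1.24 and 1.11 with auxin. Its log2 change was 0.51 (SE 0.075, limma adjusted p 0.0366). RPS0B, on chromosome XII at 242232 to 243349, rose from 0.877 and 0.790 to 1.16 and 1.17. The others were RPP0, the stalk base protein of the large subunit, from 0.767 and 0.703 to 1.06 and 0.984, and RPS28B, from 0.869 and 0.775 to 1.20 and 1.12. All 4 lie on chromosome XII, where the 18 ribosomal protein bodies had a median change of 0.34; the 119 elsewhere had 0.26 with 0 called by limma, and 112 of them had both auxin libraries above. The 512 bodies of chromosome XII as a whole had a median change of 0.070, and the part played by that shift in these calls was not tested.

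The 2 ribosomal protein bodies with a negative change were RPL41A and RPL41B, which encode the smallest protein of the large subunit in ORFs of 78 bp, shorter than a nucleosome. RPL41A had 1.36 and 1.32 without OsTIR1 and 1.11 and 1.25 with auxin, and RPL41B 1.11 and 1.13 against 1.01 and 0.985. Neither was called (limma adjusted p 0.260 and 0.240). The 56 small-subunit genes and the 81 large-subunit genes had like medians of 0.25 and 0.27. Many ribosomal protein genes come as near-identical pairs, and how fragments matching both copies were placed is not given in the sources used here, so values of single paralogs are uncertain.

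Body coverage before auxin went with the change over all genes. Bodies were put into 5 equal bins by their coverage in the untreated OsTIR1 libraries, which no group of the test holds. In the bin with the lowest coverage both auxin libraries lay above both libraries without OsTIR1 in 579 of 1194. In the bin with the highest coverage this was so in 142 of 1194, and both lay below in 503. The median log2 change went from 0.098 in the lowest bin to -0.052 in the highest. Of the ribosomal protein bodies, 121 were in the lowest bin, with a median change of 0.26 and both auxin libraries above in 116, while the 1073 other bodies of that bin had 0.084 and 463.

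Upstream of the same genes coverage was also higher with auxin. The promoter was taken as the 250 bp before the start codon, which includes the 5′ untranslated region. The median over 137 ribosomal protein promoters was 0.362 and 0.397 without OsTIR1, 0.385 and 0.358 untreated, and 0.456 and 0.536 with auxin. Both auxin libraries exceeded both libraries without OsTIR1 in 100 of them, against 10.9% of all 5963 promoters. The median log2 change was 0.29, against -0.053 for all promoters; without auxin replicate 2 it was 0.18, with 119 of 137 positive. The median of all promoters was 0.012 without no OsTIR1 replicate 2, -0.12 without no OsTIR1 replicate 1 and 0.00094 with scaling by median ratios, so its sign rested on 1 library and on the scaling. Auxin replicate 1 alone exceeded both in 102 and replicate 2 in 128, where all promoters gave 27.8% and 24.7%. An unadjusted p under 0.05 with a positive change was found in 63, against 2.08% of all promoters.

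Of these promoters, limma called 10, all higher, where 0.319% of all promoters were called higher, and the 10 made up most of the 19 called in that direction. RPL33A had 0.302 and 0.323 without OsTIR1 and 0.471 and 0.648 with auxin (log2 change 0.67, limma adjusted p 0.00709). RPP1B, an acidic stalk protein of the large subunit, had 0.335 and 0.402 against 0.715 and 0.559 (0.65, adjusted p 0.00990). RPS17A had 0.275 and 0.359 against 0.493 and 0.581, RPL37A 0.310 and 0.362 against 0.521 and 0.611, and RPL27A 0.286 and 0.344 against 0.530 and 0.526. In each of these 5 the untreated OsTIR1 libraries lay below both auxin libraries. The changes of RPL1A and RPL15B were negative, at -0.15 and -0.059, and neither was called. Limma called 0 ribosomal protein promoters when either library without OsTIR1 was left out, with 270 and 154 promoters of any kind at an unadjusted p under 0.05.

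The mean profile around the ribosomal protein start codons showed where the differences lay. The lowest point of the depleted region was 0.132 and 0.171 without OsTIR1, 0.145 and 0.127 untreated, and 0.221 and 0.245 with auxin. It lay 204 and 203 bp upstream of the start codon without OsTIR1 and 232 and 225 bp upstream with auxin. In the first 200 bp of the ORF the mean was 0.988 and 0.981 without OsTIR1 and 1.13 and 1.13 with auxin. From 200 to 400 bp it was 0.782 and 0.770 against 0.982 and 0.939. The separation between the groups was wider past the first nucleosome of the ORF than on it. As many of these ORFs are short, the far part of the profile includes neighbouring sequence.

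**Figure D1:**
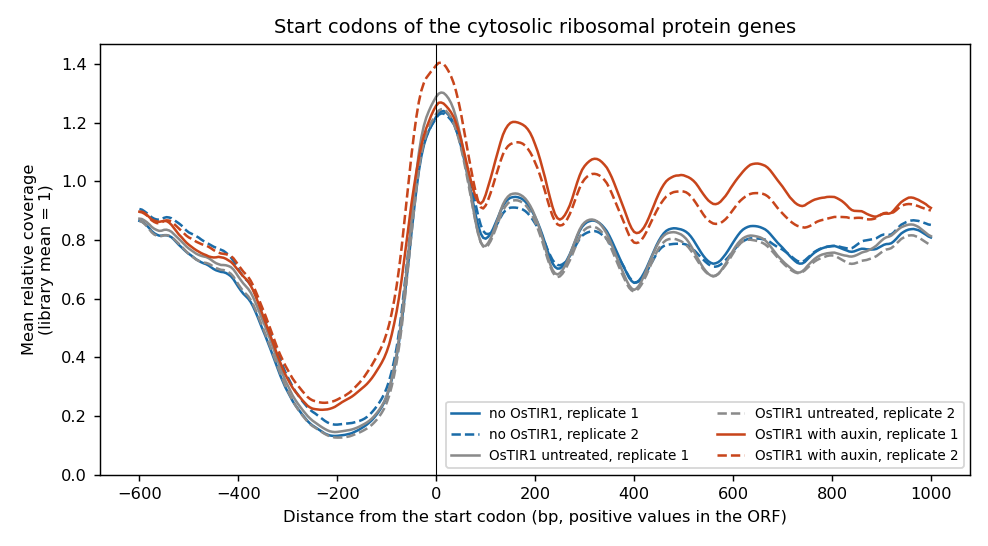
Mean relative coverage around the start codons of the 137 cytosolic ribosomal protein genes, by distance in bp, smoothed over 21 bp, 1 line for each of 6 heavily digested libraries. From 200 to 400 bp into the ORF the auxin libraries average 0.982 and 0.939 and the other 4 lie between 0.757 and 0.782.

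Leaving out any 1 of the 4 libraries kept the median body change of the ribosomal protein genes between 0.23 and 0.32 and left at least 134 of 137 positive. With mean fragment length as a covariate in a fit of all 6 heavily digested libraries, the median was 0.20 and 127 were positive. The calls were less stable than the direction: limma called 0 ribosomal protein bodies when either library without OsTIR1 was left out, with 703 and 359 bodies of any kind at an unadjusted p under 0.05.

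Other lists had smaller median changes. The untreated median body coverage of the respiratory chain, histone, glycolysis, galactose and chaperone lists lay in the range of the lowest coverage bin. All bodies of that bin gave 48.5% with both auxin libraries above both without OsTIR1 and a median change of 0.098. Of them, 31.8% were higher at an unadjusted p under 0.05. The nuclear genes of the respiratory chain and ATP synthase, which galactose-grown cells use more than cells on glucose, had a median log2 change of 0.15. Of 37, 24 had both auxin libraries above both without OsTIR1 and 0 had both below, and 19 had an unadjusted p under 0.05, all higher. All bodies gave 26.1% above, 24.1% below and 11.1% higher at that p. COX12, a subunit of cytochrome c oxidase, was the member called: 0.890 and 0.909 without OsTIR1, 0.929 and 1.01 untreated, 1.28 and 1.32 with auxin (log2 change 0.48, limma adjusted p 0.0250). NDI1, the internal NADH dehydrogenase, had 0.740 and 0.684 against 0.954 and 0.904 (adjusted p 0.0668).

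The 11 histone genes, which encode the core, variant and linker histones, all had a positive body change, with a median of 0.25; 8 had both auxin libraries above, against 26.1% of all bodies, and limma called 0, with 5 higher at an unadjusted p under 0.05, against 11.1%. HHF1, a histone H4 gene, had 0.809 and 0.780 without OsTIR1 and 1.27 and 0.992 with auxin, so its auxin replicates were far apart. HHT1, its divergent histone H3 neighbour, had 0.889 and 0.917 against 1.16 and 1.10. Histone genes also come in near-identical copies.

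Among 20 genes of glycolysis and fermentation the median body change was 0.14, with 12 above (60.0%) and 2 below, and limma called 0, with 9 higher at an unadjusted p under 0.05 (45.0%, against 11.1% of all bodies). TPI1, triosephosphate isomerase, had 0.877 and 0.857 without OsTIR1 and 1.12 and 1.09 with auxin (log2 change 0.32, limma adjusted p 0.0577). PDC1, the main pyruvate decarboxylase, had 0.917 and 0.874 against 1.21 and 1.11 (0.34, adjusted p 0.0708). Their promoters did not go the same way: the median promoter change of the 20 was -0.17, with 10 below and 1 above, where all promoters gave 24.4% and 10.9%. With the auxin libraries averaged before the log2, that median was -0.24 without no OsTIR1 replicate 1 and -0.074 without no OsTIR1 replicate 2. Median coverage of these promoters was 0.675 and 0.741 without OsTIR1, 0.630 and 0.610 untreated, and 0.627 and 0.661 with auxin. The untreated medians were thus already below those without OsTIR1. GLK1, glucokinase, was called lower there, with 0.452 and 0.426 against 0.238 and 0.251 (-0.65, adjusted p 0.00990), but the ORF next to it overlaps GLK1, so this window lies in that ORF. The only glycolytic promoter called higher was ADH1, which is given with the strain differences.

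In the 12 genes of the galactose regulon, induced in this medium, limma called 0 bodies and 0 promoters. At an unadjusted p under 0.05, 3 bodies were higher and 1 lower, where all bodies gave 11.1% and 5.97%, and 1 promoter was higher and 2 lower, where all promoters gave 2.08% and 5.89%. GAL10, the epimerase, had 0.590 and 0.628 in the body without OsTIR1, 0.604 and 0.584 untreated, and 0.713 and 0.762 with auxin (log2 change 0.24, limma adjusted p 0.113). GAL3, the galactose sensor, had 0.874 and 0.807 against 1.06 and 1.02 (adjusted p 0.0818). GAL1, galactokinase, had 0.542 and 0.639 against 0.645 and 0.638, and GAL7, the transferase, 0.732 and 0.771 against 0.679 and 0.738, so for both the groups overlapped. The mean of the GAL7, GAL10 and GAL1 bodies was 0.621 and 0.679 without OsTIR1 and 0.679 and 0.712 with auxin. In the 668 bp between GAL10 and GAL1, which hold the activator sites, coverage was 0.139 and 0.205 against 0.147 and 0.256, again overlapping.

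The 48 meiosis and sporulation genes, which are silent in growing cells, had a negative median change in the body. Both auxin libraries lay below both without OsTIR1 in 27 of their bodies and above in 7, where all bodies gave 24.1% and 26.1%. Their median change was -0.056, and limma called 0, with 10 lower and 2 higher at an unadjusted p under 0.05, where all bodies gave 5.97% and 11.1%. Their untreated medians were 1.15 and 1.15, in the range of bin 4 of the 5 by untreated coverage, counted from the lowest. That bin had a median change of -0.026, with both auxin libraries below in 402 of 1193. The highest bin had -0.052 and 503 of 1194. SPS100, a spore wall protein, had 1.21 and 1.19 without OsTIR1 and 1.03 and 1.05 with auxin. The 18 chaperone genes had a median of 0.069, with both auxin libraries above in 8 (44.4%) and an unadjusted p under 0.05 with a positive change in 6 (33.3%). Their untreated medians were 0.876 and 0.909, in the range of the lowest coverage bin, which gave 0.098, 48.5% and 31.8%. Medians of the remaining lists were 0.046 for 42 ribosome biogenesis genes, 0.041 for 30 chromatin remodellers and histone chaperones, 0.034 for 28 genes of RNA polymerase II and TFIID, -0.013 for 17 genes of the phosphate regulon and -0.034 for 16 of topoisomerases, condensin and cohesin. None of these lists, chaperones included, had a body called by limma. At an unadjusted p under 0.05, 6 chaperone genes were higher and 1 lower. In the others, in that order, 7, 2, 0, 3 and 1 members were higher (16.7%, 6.67%, 0.0%, 17.6% and 6.25%). Lower at that p were 0, 0, 1, 3 and 1. All bodies gave 11.1% higher and 5.97% lower.

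**Figure D2:**
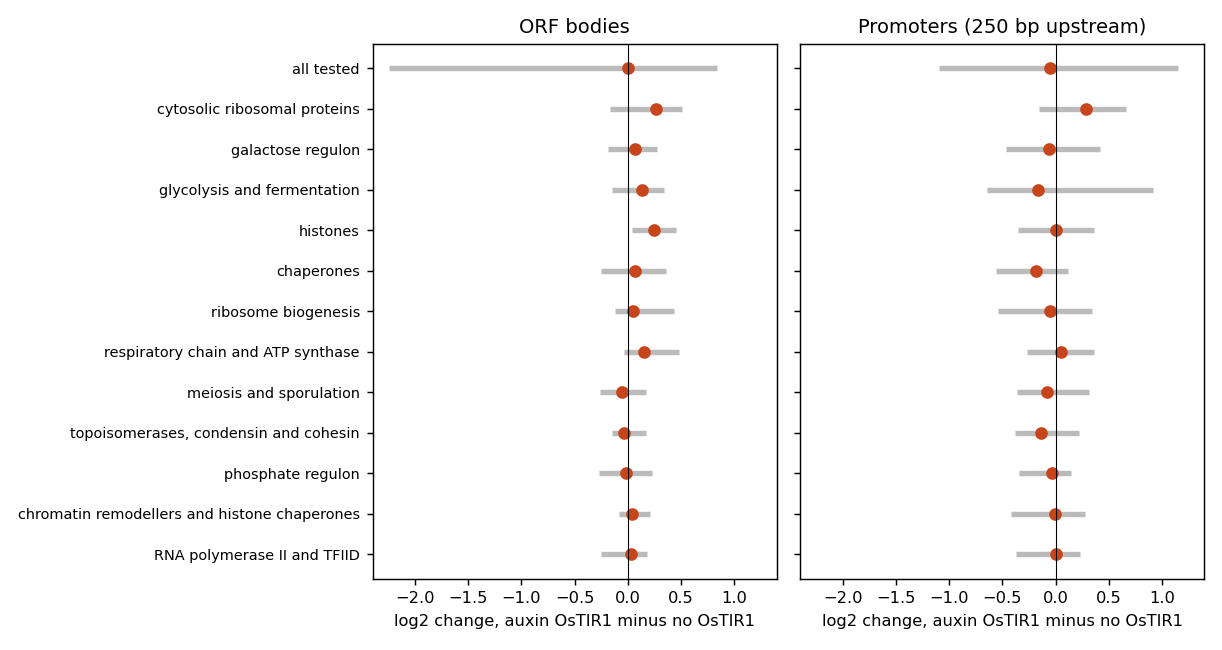
Log2 change from no OsTIR1 to OsTIR1 with auxin for ORF bodies (left) and promoters (right), by gene list. Points are medians over the genes of a list and grey bars run from its lowest to its highest gene. The ribosomal protein genes have medians of 0.26 and 0.29, and all features 0.0024 and -0.053.

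Across all 5967 bodies limma called 29 (0.486%), 23 higher (0.385%) and 6 lower (0.101%) with auxin; scaling by median ratios left 2, 1 in each direction. MSB2, a mucin-like sensor of the osmotic stress pathway at chromosome VII, 516943 to 520863, had 0.726 and 0.652 without OsTIR1, 0.736 and 0.742 untreated, and 1.10 and 1.00 with auxin (log2 change 0.55, SE 0.072, limma adjusted p 0.0331). BDF1, a bromodomain protein associated with TFIID, at chromosome XII, 919536 to 921596, had 0.647 and 0.593 against 0.995 and 0.876 (0.52, adjusted p 0.0366). RPA12, a subunit of RNA polymerase I, had 0.660 and 0.609 against 1.07 and 0.899 (0.56, adjusted p 0.0366). In these 3 the untreated OsTIR1 libraries lay below both auxin libraries.

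CDC42, a regulator of cell polarity, rose from 0.885 and 0.831 to 1.26 and 1.27 (log2 change 0.51, limma adjusted p 0.0250), with 0.939 and 0.963 untreated. LSM3, part of the Lsm rings that act in splicing and mRNA decay, rose from 0.666 and 0.642 to 0.975 and 0.888. BIO4, an enzyme of biotin synthesis near the right end of chromosome XIV, rose from 0.632 and 0.614 to 0.980 and 0.988 (0.58, adjusted p 0.0160). Its untreated OsTIR1 libraries had 0.859 and 0.928, so most of the BIO4 difference was already there without auxin. Of the 8 bodies named here as the largest called rises, 5 lie on chromosome XII (BDF1, RPS1A, CDC42, COX12 and LSM3).

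PMA1, the plasma membrane proton pump and one of the most transcribed genes of yeast, was named after its values were seen. Its body, at chromosome VII, 479910 to 482666, had 0.716 and 0.742 without OsTIR1, 0.693 and 0.681 untreated, and 1.02 and 1.00 with auxin (log2 change 0.42, SE 0.058, limma adjusted p 0.0366). The 250 bp before its start codon had no detectable difference, with 0.692 and 0.780 against 0.693 and 0.770 (log2 change -0.0070, SE 0.15). This window may not hold all of the PMA1 promoter, and whether the stretch beyond it belongs to that promoter was not tested. Farther upstream, coverage was higher in a gap of 232 bp between BRP1, a dubious ORF, and YGL007C-A: the BRP1 promoter had 0.130 and 0.214 without OsTIR1, 0.142 and 0.140 untreated, and 0.408 and 0.449 with auxin (0.97, limma adjusted p 3.01e-07). The promoter of CCW12, an abundant cell wall mannoprotein, also named after its values were seen, had 0.0961 and 0.114 against 0.230 and 0.345 (0.90, adjusted p 3.78e-06). CWP2, another cell wall mannoprotein, had 0.218 and 0.261 against 0.421 and 0.429 in its promoter window (0.63, adjusted p 0.0124), most of which lies in the neighbouring ORF 30 bp away.

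Bodies lower with auxin were fewer. AIM26 had 0.693 and 0.808 without OsTIR1, 0.599 and 0.638 untreated, and 0.510 and 0.507 with auxin (log2 change -0.48, limma adjusted p 0.0430). KSH1, a small protein of the secretory pathway, had 1.51 and 1.50 against 1.13 and 1.18 (-0.36, adjusted p 0.0478). In both, the untreated OsTIR1 libraries lay between the groups. SRL2 had 1.08 and 1.02 against 0.718 and 0.808, and POA1, a phosphatase of ADP-ribose phosphate, 1.16 and 1.23 against 0.903 and 0.961; neither passed the threshold (adjusted p 0.0543 and 0.0708).

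Of 5963 promoters limma called 36 (0.604%), 19 higher and 17 lower; with scaling by median ratios it called 10, 7 higher and 3 lower. SIR2, the histone deacetylase of silent chromatin, had 0.545 and 0.670 in its promoter without OsTIR1, 0.543 and 0.497 untreated, and 0.224 and 0.357 with auxin (log2 change -0.87, SE 0.15, limma adjusted p 9.15e-06). PLM2, a transcription factor with a forkhead-associated domain, had 0.786 and 0.900 against 0.460 and 0.464 (-0.74, adjusted p 0.000800). RAD7, a protein of nucleotide excision repair, had 0.433 and 0.602 against 0.256 and 0.304, and SNF11, a subunit of the SWI/SNF remodeller, 0.435 and 0.533 against 0.207 and 0.334. ATG31, an autophagy protein, had 0.396 and 0.505 against 0.209 and 0.289, and PHM8, a phosphatase, 0.554 and 0.705 against 0.310 and 0.425. In these 6 the untreated OsTIR1 libraries also lay above both auxin libraries. SSA1, a cytosolic Hsp70, had 1.00 and 1.23 against 0.689 and 0.757, with 0.894 and 0.749 untreated (-0.56, adjusted p 0.0495). Of the 18 chaperone promoters 6 had an unadjusted p under 0.05 and a negative change, against 5.89% of all promoters. Their median coverage was 0.902 and 1.02 without OsTIR1, 0.862 and 0.800 untreated, and 0.673 and 0.755 with auxin. Untreated replicates 1 and 2 lay below both libraries without OsTIR1 in 10 and 12 of the 18, against 31.9% and 45.4% of all promoters. Auxin replicates 1 and 2 did so in 14 and 11, against 49.1% and 39.6%.

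Another 3 of the named promoters lie at loci that differed between the strains without auxin. ADH1, whose promoter drives OsTIR1 in the second strain, had 0.744 and 0.755 in its promoter without OsTIR1, 1.42 and 1.29 untreated and 1.59 and 1.42 with auxin (log2 change 0.92, limma adjusted p 2.64e-06), so the difference was present without auxin. The HIS3 body, a marker gene, had 0.364 and 0.384 without OsTIR1 and was at 0 in both auxin libraries. The HIS3 and MRM1 promoters, which share a gap of 237 bp, had 0.442 and 0.555, and 0.422 and 0.528, without OsTIR1. Both were at most 0.242 in all 4 OsTIR1 libraries.

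**Figure D3:**
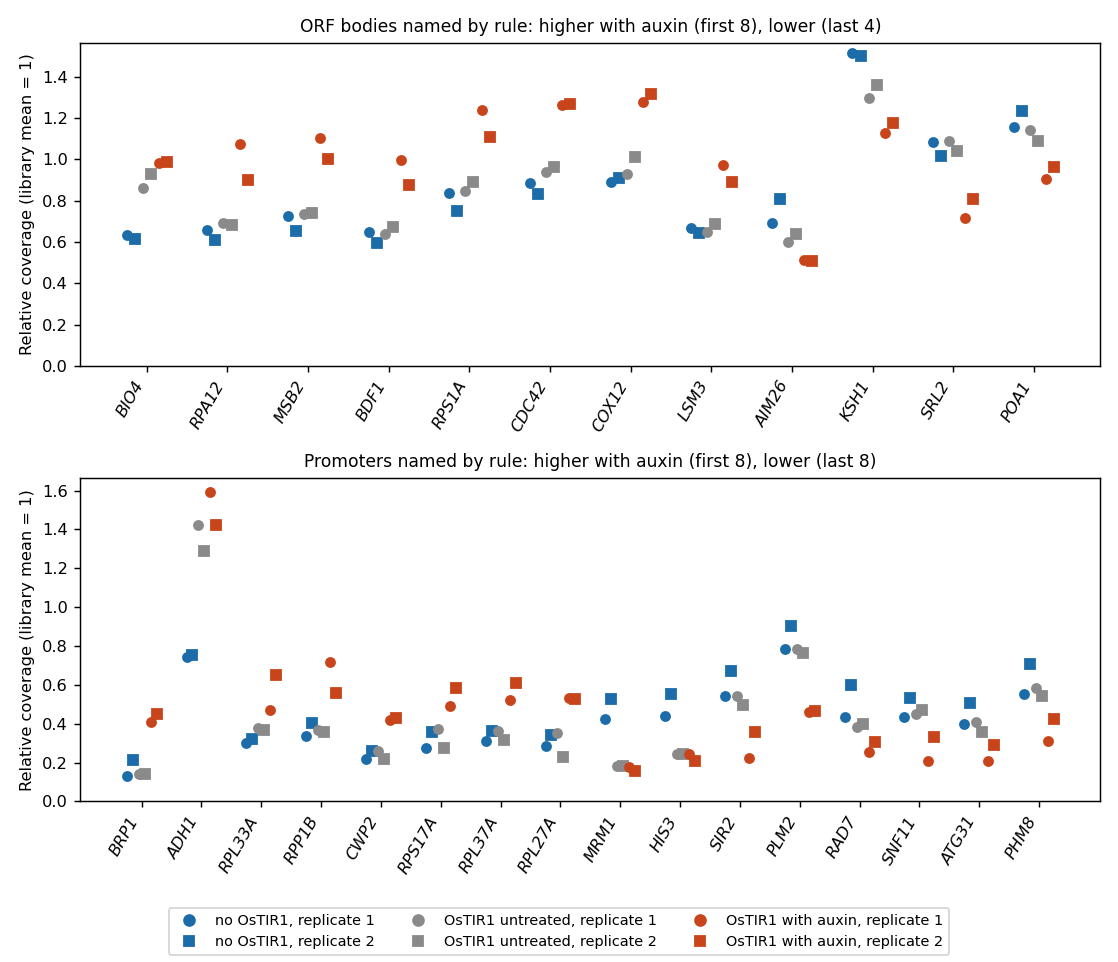
Relative coverage of each named ORF body (top) and promoter (bottom) in each of 6 heavily digested libraries, 1 point per library. ADH1, HIS3, MRM1 and BIO4 differ between strains without auxin as well, whereas the BRP1 promoter has 0.142 and 0.140 untreated and 0.408 and 0.449 with auxin.

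Nucleosome arrays were compared next. Averaged over ORFs of at least 1000 bp, all 6 libraries had a trough upstream of the start codon and regular peaks downstream. The trough, taken over all ORFs, was 0.561 and 0.636 without OsTIR1 and 0.563 and 0.603 with auxin, and promoters as a whole stood to bodies at log2 ratios of -0.38 and -0.21 against -0.39 and -0.33, so neither separated the groups. After the stop codon the lowest coverage was 0.774 and 0.878 against 0.764 and 0.817. The mean spacing of the first 4 nucleosomes was 161.0 bp in both libraries without OsTIR1, 161.3 and 161.0 bp untreated, and 158.7 and 159.3 bp with auxin. The spacing groups did not overlap, but the difference of -2.0 bp changed to 0.83 bp without smoothing.

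Over all ORFs, the peak nearest the start codon lay at 15 and 8 bp without OsTIR1 and at 16 bp in both auxin libraries. Unsmoothed, these group means were equal. Over ORFs of at least 1000 bp, the smoothed peak lay at 8 and 7 bp without OsTIR1, 7 and 7 bp untreated, and 16 and 16 bp with auxin. For this set the groups did not overlap, and the unsmoothed position is not given. The last of the 4 peaks lay at 491 and 490 bp without OsTIR1 and 492 and 494 bp with auxin. The peak-to-trough amplitude was 0.187 and 0.164 without OsTIR1, 0.202 and 0.194 untreated, and 0.167 and 0.161 with auxin. The lower values were thus shared by both auxin libraries and by no OsTIR1 replicate 2. The median shift of single arrays against the untreated OsTIR1 profile was 0.485 and 1.53 bp without OsTIR1 and 1.52 and 1.66 bp with auxin. In an exact permutation test of both sides 2 libraries against 2 cannot go below p = 0.333. The 10 values per library tested in this way had Benjamini-Hochberg adjusted permutation p of 0.741, or 1.0 for the upstream trough.

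**Figure D4:**
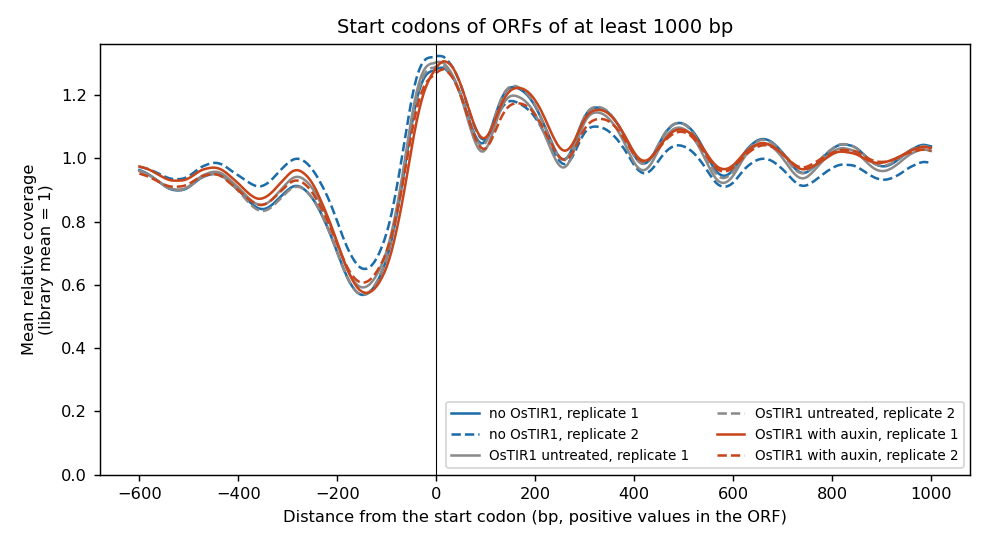
Mean relative coverage around the start codons of ORFs of at least 1000 bp, by distance in bp, smoothed over 21 bp, 1 line per heavily digested library. The upstream trough and the downstream peaks of the 2 auxin libraries lie within or close to the range of the other 4 lines.

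Single ORFs differed more in their arrays than the mean profile did. Periodicity was measured as the amplitude of the 160-bp component over the first 960 bp of an ORF, divided by the mean coverage there, and was compared as log2(amplitude + 0.01). Of 3573 ORFs limma called 303 (8.48%), 70 more and 233 less periodic with auxin, and the median change was -0.10. That median turned to 0.032 without no OsTIR1 replicate 1 and was -0.24 without no OsTIR1 replicate 2, so its direction rested on 1 library. Per library the median amplitude was 0.221 and 0.179 without OsTIR1, 0.237 and 0.229 untreated, and 0.183 and 0.172 with auxin. No OsTIR1 replicate 2, which had the longest fragments, was low as well. Leaving out either library without OsTIR1 left 0 called by limma, with 344 and 699 ORFs at an unadjusted p under 0.05. With a period of 170 bp limma called 289, of which 149 were among the 303.

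Several chaperone genes, which heat shock factor and stress factors induce, lost periodicity. Of 14 tested, limma called 6, all lower, where 6.52% of all ORFs were called lower, and 10 had both auxin libraries below both without OsTIR1, against 32.0% of all ORFs. Their median change was -0.49. HSP104, a protein disaggregase, had an amplitude of 0.114 and 0.117 without OsTIR1, 0.0954 and 0.104 untreated, and 0.0531 and 0.0267 with auxin (log2 change -1.39, SE 0.23, limma adjusted p 3.31e-07). HSP42, a small heat shock protein, had 0.122 and 0.113 against 0.0534 and 0.0369, and HSP82, an Hsp90, 0.153 and 0.115 against 0.0668 and 0.0409. In all 3 the untreated OsTIR1 libraries lay above both auxin libraries. In the phosphate regulon, 3 of 12 were called lower: PHO84, the phosphate transporter, PHO5, the secreted acid phosphatase, and VTC2. PHO5 had 0.159 and 0.115 against 0.0622 and 0.0792 (-0.86, adjusted p 0.00506).

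By the rule of largest change, the ORFs that lost most periodicity were FRE1, KTR1, ATG1 and RNR4. FRE1, a ferric reductase on chromosome XII at 568567 to 570627, had 0.103 and 0.0683 without OsTIR1, 0.0780 and 0.0798 untreated, and 0.00922 and 0.00343 with auxin (log2 change -2.55, limma adjusted p 8.44e-24). ATG1, the autophagy kinase, had 0.149 and 0.119 against 0.0103 and 0.0494, and RNR4, a ribonucleotide reductase subunit, 0.103 and 0.0616 against 0.0127 and 0.0146. KTR1, a mannosyltransferase, had 0.0941 and 0.0612 against 0.00112 and 0.0273. The rule of largest log2 change favours low starting values among gains and low values with auxin among losses. Some auxin values of these losses were near 0, the auxin replicates of KTR1 were far apart, and every ORF had the same SE. ILV5, an enzyme of branched-chain amino acid synthesis, had 0.0252 and 0.0169 against 0.0987 and 0.0696, and ARN2, a siderophore transporter, 0.00816 and 0.0197 against 0.0646 and 0.0673. The gains of SPS4 and HXT17 turned into losses when a period of 170 bp was used, and HXT17 has near-identical relatives.

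Glycolytic ORFs were divided. PFK1, the alpha subunit of phosphofructokinase, gained periodicity, from 0.0188 and 0.0234 to 0.0746 and 0.0681 (log2 change 1.39, limma adjusted p 3.21e-07). PGK1 was also called higher, from 0.0134 and 0.00744 to 0.0756 and 0.0181, with 0.00459 and 0.0211 untreated. Its auxin replicate 2 lay below untreated replicate 2, so only auxin replicate 1 stood apart from the untreated libraries. PDC1 lost periodicity, from 0.0466 and 0.0445 to 0.0182 and 0.0177. In all, limma called 3 higher and 1 lower of 15, where 1.96% and 6.52% of all ORFs were called. In 6 of the 15 both auxin libraries lay above both without OsTIR1, against 6.94% of all ORFs. GAL3 gained, from 0.0441 and 0.0348 to 0.0924 and 0.0901, and MTH1, a glucose-sensing repressor, lost, from 0.0978 and 0.0945 to 0.0606 and 0.0402. Of 18 ribosomal protein genes long enough to test, limma called 2, RPS9A and RPL7B, both higher, and the median change was -0.0051. With a period of 170 bp the calls of HSP42, PHO84, ATG1, RNR4, ARN2, PFK1, PGK1, PDC1, GAL3, MTH1 and RPS9A were lost, with the same direction in each.

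Coverage rose less towards the end of long genes in both auxin libraries. In 1311 ORFs of at least 2000 bp, the last 500 bp were set against the stretch from 500 to 1000 bp as a log2 ratio, whose mean was 0.18 and 0.26 without OsTIR1 and 0.099 and 0.11 with auxin. The groups did not overlap, and the untreated libraries, at 0.18 and 0.18, lay with the lower library without OsTIR1. Replicate 1 of the lightly digested OsTIR1 libraries, by file name, had 0.51 with auxin and 0.78 untreated. The auxin libraries had the shortest mean fragments of the 6 heavily digested libraries, 129.0 and 129.3 bp. The part played by digestion in this ratio was not tested. The difference of -0.12 had the smallest p that the exact permutation test allows, 0.333. By piece, the last 500 bp averaged 1.13 and 1.12 without OsTIR1, 1.12 and 1.12 untreated, and 1.08 and 1.09 with auxin. The piece from 500 to 1000 bp averaged 0.994 and 0.937 without OsTIR1, 0.986 and 0.996 untreated, and 1.00 and 1.01 with auxin. For this piece no OsTIR1 replicate 1 and the untreated libraries lay close to the auxin libraries, and no OsTIR1 replicate 2 was the lowest. ORFs of at least 3000 bp gave a difference of -0.14.

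**Figure D5:**
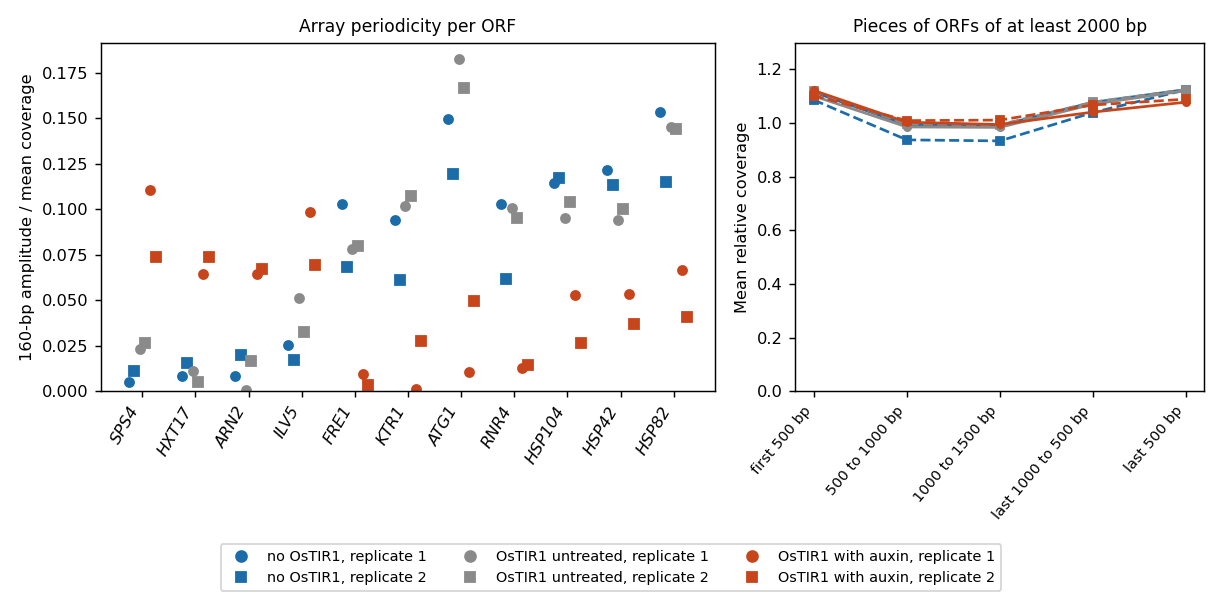
Left, amplitude of the 160-bp component divided by mean coverage for the ORFs named by rule and for 3 chaperone genes, 1 point per heavily digested library. Right, mean relative coverage in 5 pieces of ORFs of at least 2000 bp, where the last piece averages 1.08 and 1.09 with auxin and at least 1.12 in the other 4 libraries.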

How the data were processed

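The deposited coverage (signal) gives, for every base of 17 contigs, the whole number of fragments over it. The authors had kept fragments of 95 to 225 bp, per the file headers, and used Bowtie2 and sacCer3, per the submitters' processing notes; treatment of duplicates is not given in the sources used here. Coverage was divided by each library's nuclear mean without the rDNA, so a rise in one place is balanced elsewhere. ORFs came from the RefSeq annotation of R64, the same assembly as sacCer3; 5975 of 6002 nuclear ORFs were kept, leaving out those within 1000 bp of contig ends or in the rDNA. Mean start-codon profiles of 32 pieces, each chromosome cut at its middle, were aligned to that of all other ORFs, with a largest shift of 14 bp and a median of 3 bp. A body is the whole ORF, introns included.

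The main test was limma 3.58.1 (lmFit, eBayes; R 4.3.3) on log2 of relative coverage plus 0.1, for features that averaged 0.1 or more, 2 libraries against 2, two-sided, with Benjamini-Hochberg adjustment and a threshold of 0.05. Changes on this scale understate those of low features. For promoters and arrays limma estimated one common variance, so every feature has the same SE. The script was tested on simulated data. Values per library were compared by exact permutation (Python 3.11.15, numpy 2.4.6), and profiles were smoothed over 21 bp. The labels do not say whether replicates came from separate cultures, so p-values measure only the spread between these libraries. Depth was at least 11174384 nuclear fragments, so counting error is small for whole ORFs.

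Members, gene lists and tests were chosen with earlier results of these data known, so the lists carry counts and medians beside those of all features and no test of their own. Named genes were the 8 called bodies and promoters (4 for arrays) of largest change in each direction with groups that do not overlap, a gene symbol and a mean of at least 0.3, or the 4 of smallest p where fewer than 4 were called, and examples of each list by p. ORFs that overlap another were left out of the choice by largest change, but not of the list examples. No genome sequence was used here. Alternatives to these choices are given at the end.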

Additional observations from a re-analysis of the deposited data

How the results depend on the processing

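The counts of calls depended on nearly every choice, while the direction of the ribosomal protein bodies did not: at least 127 of 137 stayed positive in every alternative for bodies except grouping by labelled dose, where 96 did. Bodies called (29) moved to 9 with no filter, 19 with a filter of 0.5, 17 with scaling to the median ORF body, 2 by median ratios, 192 with eBayes trend and robust fitting, 190 with all 6 heavily digested libraries and 2 when mean fragment length was added to these. Promoters called (36) moved to 5 with a pseudocount of 1, 4 with a filter of 0.5, 21 and 10 with the 2 scalings, 10 with trend and robust fitting, 16 with 6 libraries and 14 with a window of 150 bp. With fragment length limma called 0 promoters and 0 arrays, with 152 and 1549 at an unadjusted p under 0.05; the median change of all promoters turned to 0.083 and that of arrays was -0.44. The ribosomal protein promoters called (10) became 0 with a pseudocount of 1, median ratios, trend and robust fitting, fragment length and a window of 150 bp. Arrays called (303) moved to 84 with trend and robust fitting, chosen after seeing the data. Leaving out 1 library gave 1 to 811 bodies, 7 to 365 promoters and 0 to 215 arrays; the lowest counts came without no OsTIR1 replicate 1 (arrays: without either library of that strain) and the highest without auxin replicate 2 (arrays: without auxin replicate 1). The causes of these moves were not tested.

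The same left-out libraries put the promoter-to-body log2 ratio difference (-0.067) between -0.15 and 0.016, the upstream trough (-0.0158) between -0.0531 and 0.0214, the amplitude (-0.0115) between -0.0232 and 0.000153, the GAL10-GAL1 gap (0.0301) between -0.0245 and 0.0847 and the trough after the stop codon (-0.0355), added after seeing the data, between -0.0874 and 0.0164. Without smoothing the first peak differed by 0.0 bp and spacing by 0.833 bp. The ratio from end to start of long ORFs stayed negative, from -0.16 to -0.076.

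Grouping by labelled dose exchanges auxin replicate 1 for an auxin library with light digestion by file name. It left 1 body called, and limma called 0 promoters and 0 arrays, with 77 and 390 at an unadjusted p under 0.05. Differences became 0.39 for the promoter-to-body ratio, 0.288 for the upstream trough, -18.0 bp for the first peak, 0.086 for the end-to-start ratio and 0.160 for the trough after the stop codon. Spacing and amplitude could not be read there. Log2 changes that turned were, for bodies, ADH1 -0.057, GAL7 0.21, GAR1 -0.062, HMO1 -0.14, LSM3 -0.071, NDI1 -0.033, PHO80 0.0047, RSC2 -0.16, SSB1 -0.083 and TAF9 -0.38. For promoters they were ATG31 0.56, GAL10 1.38, GLK1 0.23, PHM8 0.43, PMA1 0.54, RAD7 0.52, SIR2 0.20, SNF11 0.48, SSA1 0.0067, TOP1 0.41 and TOP2 0.35. With fragment length TAF9 (body) turned to -0.054 and the promoters of GAL10 to 0.28, GAL7 to -0.19 and PMA1 to 0.15. The PMA1 promoter was also positive by median ratios (0.046) and with windows of 150 bp (0.077) and 400 bp (0.15), and the GAL7 promoter was negative with 150 bp (-0.14). Leaving out 1 library put the promoter of GAL10 between -0.33 and 0.11, GAL7 between -0.030 and 0.15, PMA1 between -0.082 and 0.068 and TOP1 between -0.26 and 0.011. A period of 170 bp left 14 of 27 named arrays with the same direction but no longer called, and turned the arrays of HXT17 (-0.43) and SPS4 (-1.06).

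The replicate numbers pair nothing by the labels: deviations of same-numbered libraries correlated over features at 0.017 for bodies, -0.20 for promoters and -0.10 for arrays. The replicate block gave 311 bodies, 29 promoters and 402 arrays, and left the differences of values per library as they were. A crossed pairing, added after seeing the data, gave 96, 38 and 242.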

Other observations

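Chromosome XII carried 8 of the 23 bodies called higher. To the right of the rDNA, the median of 302 bodies was 1.06 and 1.02 without OsTIR1, 1.11 and 1.12 in the untreated OsTIR1 libraries and 1.10 and 1.12 with auxin, a median log2 change of 0.093 with 6 called. To its left, 210 bodies had 1.08 and 1.05 without OsTIR1, 1.06 and 1.07 untreated and 1.08 and 1.07 with auxin, with a median change of 0.019. All other chromosomes had -0.0028. The shift to the right of the rDNA was therefore present in the OsTIR1 strain without auxin. Mean coverage of the rDNA units in the reference was 27.5 and 43.0 times the library mean without OsTIR1, 28.6 and 31.4 untreated, and 30.1 and 41.0 with auxin, so it varied more within groups than between them.

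The median change in periodicity was -0.13 for ORFs with a tandem upstream neighbour and -0.077 for those with a divergent one, with 141 of 1772 and 92 of 1794 called lower, where all ORFs gave 6.52%. With 1 library left out, the change was taken on another scale, with the auxin libraries averaged before the log2 and an offset of 0.1. On that scale the medians were 0.0082 and 0.044 without no OsTIR1 replicate 1. Without no OsTIR1 replicate 2 they were -0.18 and -0.14, so on that scale both signs rested on 1 library. Their sizes cannot be set against -0.13 and -0.077, which used an offset of 0.01. The cause of this difference was not tested.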
